A study of Mus musculus with 16 samples.

Results

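The genes described here are 10 components and targets of the integrated stress response, Atf4, Ddit3, Ddit4, Trib3, Asns, Chac1, Sesn2, Atf3, Psat1 and Phgdh, chosen by symbol among 24421 genes measured in the somatosensory cortex of mice. Poly(A) RNA was sequenced from 12 libraries, 3 in each of 4 groups. Wild-type mice are C57BL/6 in the labels and C57/BL6J in the study's methods. CTL-WT mice were wild-type mice left undisturbed, SD-WT mice were wild types whose sleep was prevented by gentle handling for 8 h from ZT20 to ZT4, and CTL-AcPbKO and SD-AcPbKO mice were AcPb-/- mice under the same conditions. ZT is zeitgeber time, counted in hours from light onset, and all mice were collected at ZT4, were 2 to 3 months old and were labelled as male. AcPb is the neuron-specific isoform of the interleukin-1 receptor accessory protein, so AcPb-/- mice keep the more widely expressed isoform. The AcPb-/- mice were homozygous offspring of a separately bred stock, and genotype and stock cannot be told apart. Each library is labelled as its own sample, and p-values measure the spread between these samples.

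In the integrated stress response, kinases that sense unfolded protein in the endoplasmic reticulum, amino acid shortage, heme shortage or double-stranded RNA phosphorylate the translation initiation factor eIF2. Most translation then slows, whereas the Atf4 mRNA is translated more, and the ATF4 protein activates genes for amino acid synthesis, amino acid transport, tRNA charging, redox balance and cell death. ATF4 is thus set largely at translation, and the abundance of the Atf4 mRNA is no measure of its protein. In the brain this response is studied for its part in memory and in neurodegeneration.

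ATF4 acts with C/EBP partners at C/EBP-ATF response elements, whose letters were searched in the 250 bases before the start. Chac1 and Asns held a match and were called lower in AcPb-/- mice over both conditions (limma), and Atf3 held one without a called difference. Sesn2, Atf4 and Psat1 were called lower in the same comparison without a match in that window. Ddit3, Ddit4, Trib3 and Phgdh had neither a match nor a called difference. Introns and other bases after the start that was used were not searched. The windows of Atf3 and Psat1 lie inside the GENCODE M21 extents of these genes, before a start downstream of the extent's 5' end. For both genes, bases before that 5' end were not searched. The promoters of Chac1, Asns, Atf3 and Sesn2 are printed. The sequences are from RefSeq (GRCm38.p6), 250 bases up to the annotated start, 5' to 3' on the gene's strand. They cover chr2:119350992-119351241 (plus strand) for Chac1, chr6:7693210-7693459 (minus strand) for Asns, chr1:191183334-191183583 (minus strand) for Atf3 and chr4:132510457-132510706 (minus strand) for Sesn2. Capitals mark matches to TGATGNAA or to the related TGACGNAA on either strand, where N is any base.
Chac1 promoter: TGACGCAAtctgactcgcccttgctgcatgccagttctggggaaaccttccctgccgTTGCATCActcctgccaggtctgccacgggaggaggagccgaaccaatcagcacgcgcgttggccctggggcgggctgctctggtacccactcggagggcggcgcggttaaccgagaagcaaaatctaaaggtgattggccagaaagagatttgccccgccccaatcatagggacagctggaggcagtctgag
Asns promoter: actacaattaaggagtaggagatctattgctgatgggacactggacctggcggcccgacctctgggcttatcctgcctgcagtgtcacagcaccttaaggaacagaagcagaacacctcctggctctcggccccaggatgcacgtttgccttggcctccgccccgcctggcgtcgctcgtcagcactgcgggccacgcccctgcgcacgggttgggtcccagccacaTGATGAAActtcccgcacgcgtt
Atf3 promoter: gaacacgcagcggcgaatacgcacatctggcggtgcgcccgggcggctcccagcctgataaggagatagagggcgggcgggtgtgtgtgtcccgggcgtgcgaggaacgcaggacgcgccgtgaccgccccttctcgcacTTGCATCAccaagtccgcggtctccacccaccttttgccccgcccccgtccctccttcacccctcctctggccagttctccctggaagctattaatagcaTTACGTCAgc
Sesn2 promoter: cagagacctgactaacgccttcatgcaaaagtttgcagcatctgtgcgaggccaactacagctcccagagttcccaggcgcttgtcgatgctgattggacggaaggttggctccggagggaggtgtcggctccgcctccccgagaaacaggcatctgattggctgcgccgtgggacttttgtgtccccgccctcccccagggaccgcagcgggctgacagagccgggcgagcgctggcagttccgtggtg
TGATGNAA was present in 3 of the 10 genes' promoters (Asns, Chac1 and Atf3) and in 3.45% of 32851 mouse promoters of the same length. TGACGNAA was present in Chac1 and Atf3 and in 1.39% of all promoters. The Asns match began 23 bases before the start, the Chac1 matches 193 and 250 bases before it, and the Atf3 matches 110 and 10 bases before it. A match is a description of these letters, and factor binding was not measured.

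All 10 genes had reads in every library. Levels of different genes were compared as RPKM, read counts scaled to the annotated exon length and to the library's depth. Atf4 was the most abundant with a mean of 57.0 RPKM over the 12 libraries (lowest 37.9, highest 80.8), followed by Asns, asparagine synthetase, with 36.8 (29.2 to 43.6), and Psat1, phosphoserine aminotransferase, with 19.7 (16.2 to 22.2). Phgdh, the first enzyme of serine synthesis, followed at 16.2 RPKM (9.62 to 22.9), Ddit4, an inhibitor of mTORC1 signaling also called REDD1, at 13.9 (10.97 to 18.8), and Ddit3, the transcription factor CHOP, at 12.7 (11.9 to 13.9). Chac1, a glutathione-degrading enzyme, had 4.66 RPKM (2.48 to 7.30) and Sesn2, a leucine-sensing inhibitor of mTORC1, had 3.60 (2.51 to 4.74). The stress-induced transcription factor Atf3 with 0.244 RPKM and the pseudokinase Trib3 with 0.234 were last. Their counts were 12 to 50 and 10 to 47 reads per library, the thinnest data among the 10 genes. Neighbours in this order had overlapping ranges over libraries, except that Asns lay above Psat1, Ddit3 above Chac1, and Sesn2 above Atf3.

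Genes lie on GRCm38 with these exon extents in GENCODE M21: Atf4 on chr15:80255184-80257541, Chac1 on chr2:119351229-119354381, Asns on chr6:7675169-7693254, Psat1 on chr19:15904678-15947337, Sesn2 on chr4:132492032-132510501, Phgdh on chr3:98313170-98339990, Ddit4 on chr10:59949669-59951834, Ddit3 on chr10:127290774-127296288, Trib3 on chr2:152337422-152344032 and Atf3 on chr1:191170296-191218039. Reads of Phgdh are less certain, since 28.1% of the 100-base stretches of its exons occur in 8 other annotated genes, and the 5 of these that were looked up (Gm7901, Gm9347, Gm8341, Gm5207 and Gm9252) are not rows of the tables. Exons of Ddit3 overlap 68 bases of Mars on the other strand, and the counting's strand setting is not given in the sources used here. The 9 genes other than Phgdh shared 0.0% of such stretches.

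Libraries held 32870075 to 41615582 reads on genes in CTL-WT, 58770286 to 71775967 in SD-WT, 26504840 to 35683409 in CTL-AcPbKO and 63413467 to 71857505 in SD-AcPbKO mice, so depth and sleep deprivation cannot be told apart. Il1rap, the gene with the AcPb isoform, had normalized counts of 1476 to 1520 in CTL-WT, 1729 to 1920 in SD-WT, 1515 to 1647 in CTL-AcPbKO and 1923 to 2062 in SD-AcPbKO libraries. These counts are per gene and do not check a knockout of 1 isoform. Against the label of male, 4 control libraries (CTL-WT-02, CTL-WT-03, CTL-AcPbKO-04 and CTL-AcPbKO-05) had 25352 to 39358 reads of Xist, the RNA of the inactive X chromosome, and 0 to 2 reads summed over Uty, Kdm5d, Ddx3y and Eif2s3y on the Y chromosome. The other 8 libraries had 5 to 13 Xist reads and 5105 to 10593 Y-linked reads. No SD library had the Xist pattern, whereas both control groups held 2 such libraries, so the SD values of the 10 genes and the SD counts of the lists are given with and without them. Normalized counts of 3 choroid plexus markers summed to 205 to 483 in the control libraries, 266 to 349 in SD-WT and 271 to 17380 in SD-AcPbKO, the highest in SD-AcPbKO-04. Neuronal markers were high throughout, with sums of 340200 to 396600 over 6 genes.

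**Figure D1:**
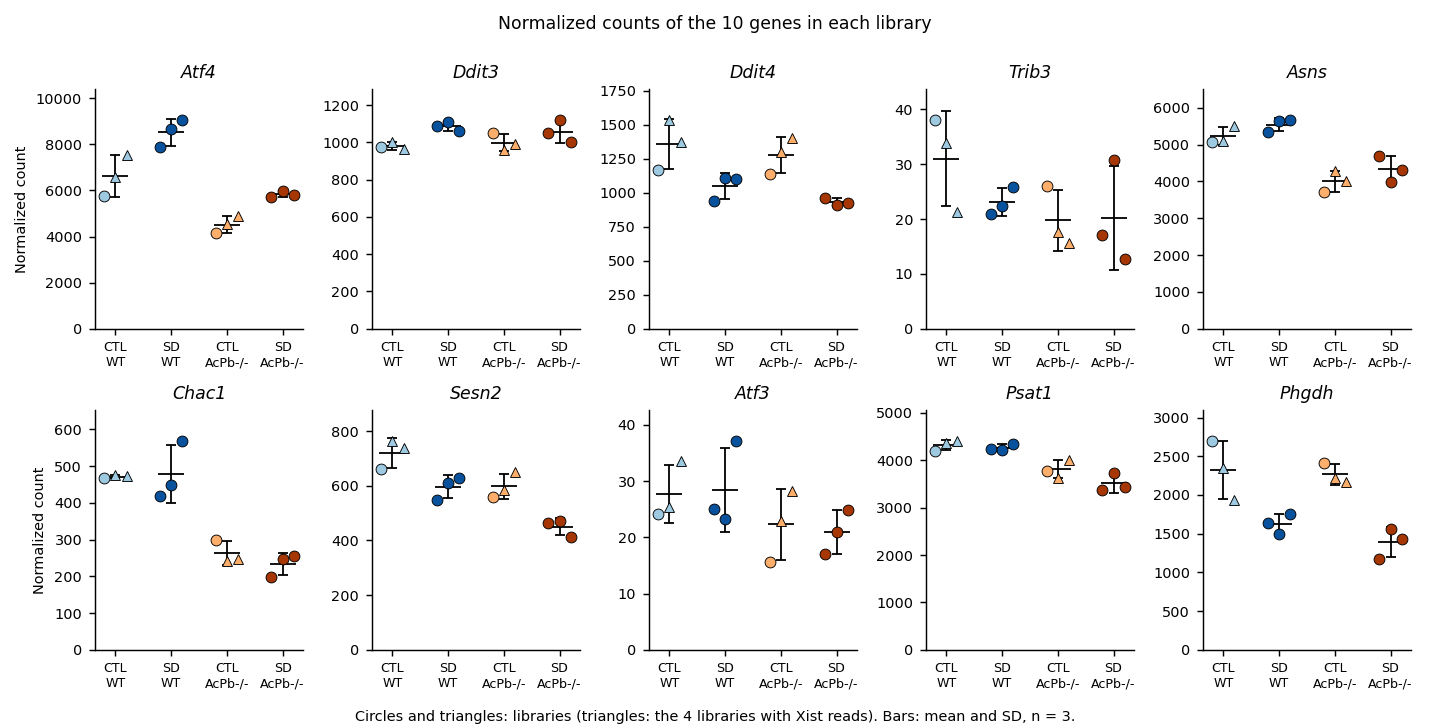
Normalized read counts (y axis, starting at 0) of the 10 integrated stress response genes in each of the 12 libraries, by group (x axis). Points are libraries, triangles the 4 libraries with Xist reads, and bars the mean and SD of 3 libraries. Atf4, Asns, Chac1, Sesn2 and Psat1 are lower in AcPb-/- than in wild-type libraries under the same condition, and Phgdh and Ddit4 are lower after SD in both genotypes.

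The first question was what 8 h of sleep deprivation did to these transcripts. Atf4 rose, and Phgdh, Ddit4 and Sesn2 fell, in wild-type mice, in AcPb-/- mice and over both. Asns, Psat1, Chac1, Trib3, Atf3 and Ddit3 did not pass the test in these comparisons. In wild-type mice 1 of the 10 genes rose and 3 fell, where 13.2% of 20417 genes tested rose and 12.2% fell (limma, adjusted p under 0.05). In AcPb-/- mice the counts were again 1 and 3, where 14.1% of 20574 genes rose and 13.3% fell. Over both genotypes 1 rose and 3 fell, against 21.2% and 20.3% of 20978 genes. The median log2 fold change of the 10 genes was -0.074 over both genotypes and 0.0029 for all genes, and 7 of the 10 were below 0 (49.7% of all genes were).

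Atf4, the transcription factor at the center of the response, had normalized counts of 5749, 6597 and 7556 in CTL-WT libraries and 7892, 8659 and 9044 in SD-WT libraries. AcPb-/- mice had 4158, 4531 and 4873 undisturbed and 5705, 5963 and 5815 after SD. Every SD library lay above every control library of its genotype. The log2 fold change was 0.37 in wild-type mice (95% CI 0.16 to 0.58, adjusted p = 0.0180 by limma), 0.37 in AcPb-/- mice (0.22 to 0.52, adjusted p = 0.00492) and 0.37 over both (0.23 to 0.51, adjusted p = 0.00047). In wild-type mice the call was lost without CTL-WT-02 (adjusted p = 0.0661) or SD-WT-02 (0.0700). Over both genotypes the calls of Atf4, Phgdh, Ddit4 and Sesn2 held with any 1 of the 12 libraries left out.

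Phgdh converts 3-phosphoglycerate into the first intermediate of serine synthesis and in brain is mainly an astrocyte gene. Its normalized counts were 2691, 2349 and 1940 in CTL-WT and 1642, 1490 and 1753 in SD-WT libraries. AcPb-/- libraries had 2413, 2219 and 2163 undisturbed and 1175, 1562 and 1435 after SD. All 6 SD libraries lay below all 6 control libraries. The log2 fold change was -0.51 in wild-type mice (95% CI -0.75 to -0.26, adjusted p = 0.00833), -0.71 in AcPb-/- mice (-0.94 to -0.48, adjusted p = 0.00205) and -0.61 over both (-0.79 to -0.42, adjusted p = 9.66e-05, limma). In bulk tissue, fewer cells of a type and less RNA per cell cannot be told apart. Of 8 astrocyte markers 2 fell over both genotypes (Aqp4 and Aldh1l1) and 0 rose, none of the 8 was at 0, and their summed normalized counts were 263000 to 304200 in CTL-WT, 269800 to 303400 in SD-WT, 257200 to 298300 in CTL-AcPbKO and 260600 to 277500 in SD-AcPbKO libraries. Their part in the Phgdh result was not tested.

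Ddit4 restrains mTORC1 and is induced by glucocorticoids and hypoxia as well as by ATF4. Its normalized counts were 1163, 1531 and 1370 in CTL-WT and 941, 1104 and 1102 in SD-WT libraries, and 1136, 1296 and 1402 in CTL-AcPbKO and 964, 906 and 925 in SD-AcPbKO libraries. All SD libraries lay below all control libraries. The log2 fold change was -0.36 in wild-type mice (adjusted p = 0.0288), -0.45 in AcPb-/- mice (adjusted p = 0.00642) and -0.41 over both (95% CI -0.57 to -0.25, adjusted p = 0.000655, limma). Sesn2, which holds mTORC1 inactive when leucine is low, had 660, 762 and 738 in CTL-WT and 549, 610 and 629 in SD-WT libraries. AcPb-/- libraries had 560, 584 and 649 undisturbed and 465, 470.5 and 414 after SD. Both genotypes separated, but wild-type SD libraries overlapped AcPb-/- controls. The log2 fold change of Sesn2 was -0.27 in wild-type mice (adjusted p = 0.0480), -0.41 in AcPb-/- mice (adjusted p = 0.0145) and -0.34 over both (95% CI -0.48 to -0.20, adjusted p = 0.000838, limma). In wild-type mice both calls were lost without CTL-WT-02, CTL-WT-03, SD-WT-01 or SD-WT-02 (log2 fold changes of Ddit4 from -0.40 to -0.27 and adjusted p from 0.0591 to 0.127, of Sesn2 from -0.29 to -0.21 and adjusted p from 0.102 to 0.184). In AcPb-/- mice Sesn2 was lost without CTL-AcPbKO-05 (adjusted p = 0.0544) or SD-AcPbKO-04 (0.0601).

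Among the 6 genes that did not pass, Ddit3 had 975, 1003 and 966 in CTL-WT and 1086, 1110 and 1062 in SD-WT libraries, without overlap. In AcPb-/- mice its 1051, 957 and 989 undisturbed overlapped the 1048, 1118 and 1002 after SD. Its log2 fold change over both genotypes was 0.11 (95% CI 0.019 to 0.21, adjusted p = 0.0518, limma), and it passed in 6 of 21 alternatives (adjusted p from 0.0325 to 0.357), among them those without CTL-AcPbKO-03, SD-AcPbKO-04 or SD-WT-04. Asns, which makes asparagine, had a log2 fold change of 0.099 over both genotypes (95% CI -0.0068 to 0.21, past the threshold in 1 of 21 alternatives), Psat1, the second enzyme of serine synthesis, -0.067 (-0.15 to 0.016) and Chac1 -0.081 (-0.28 to 0.12). Trib3 had 21.2 to 38.0 normalized counts in CTL-WT, 20.9 to 25.9 in SD-WT, 15.6 to 26.1 in CTL-AcPbKO and 12.8 to 30.8 in SD-AcPbKO libraries, and Atf3 had 24.1 to 33.5, 23.2 to 37.0, 15.7 to 28.3 and 17.0 to 24.8 in the same order, with overlap in each genotype. The intervals of these low-count genes were wide, -0.71 to 0.31 for Trib3, which binds AKT and ATF4, and -0.45 to 0.41 for Atf3, a repressor and activator of stress genes. Groups did not overlap for 5 of the 10 genes in wild-type mice (40.2% of all genes in either direction), for 4 in AcPb-/- mice (42.3%) and, with 6 libraries against 6, for Phgdh and Ddit4 (22.2%).

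The 4 control libraries with Xist reads differed from the other controls in these genes. Atf4 was higher in them than in the remaining control of its genotype (6597 and 7556 against 5749 in wild-type mice, 4531 and 4873 against 4158 in AcPb-/- mice), and Ddit4 and Sesn2 were higher as well, while Phgdh was lower. Without these 4 libraries each genotype kept 1 control, assumed to vary like the other groups. Over both genotypes Atf4 then had a log2 fold change of 0.53 (95% CI 0.38 to 0.67, adjusted p = 0.00685) and Phgdh one of -0.77 (-1.06 to -0.47, adjusted p = 0.0118). Ddit4 had -0.22 (-0.41 to -0.032, adjusted p = 0.0879) and Sesn2 -0.23 (-0.44 to -0.029, adjusted p = 0.0932, limma), so that 2 of the 10 genes remained past the threshold, where 24.7% of 20768 genes were past it. Within wild-type mice, where 3.27% of genes then passed, Atf4 did (log2 fold change 0.57, adjusted p = 0.0440) and Phgdh did not (-0.73, adjusted p = 0.0718). Within AcPb-/- mice, where 2080 of 20768 genes passed, Atf4 (0.49, adjusted p = 0.0284) and Phgdh (-0.81, adjusted p = 0.0420) did. With all libraries kept and a term for Xist, Atf4, Phgdh, Ddit4 and Sesn2 were past the threshold over both genotypes (adjusted p from 0.000173 to 0.0460, limma), where 30.8% of genes passed. The log2 fold changes were the same as without the 4 libraries, 0.53 for Atf4, -0.22 for Ddit4 and -0.23 for Sesn2. Because no SD library had the Xist pattern, this term changes the spread and gives no separate estimate of the SD effect over both genotypes. With that term Ddit4 (-0.18, adjusted p = 0.205) and Sesn2 (-0.16, adjusted p = 0.28) did not pass in wild-type mice, and in AcPb-/- mice Ddit4 did not (-0.26, adjusted p = 0.0541) while Sesn2 did (-0.30, adjusted p = 0.0433).

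**Figure D2:**
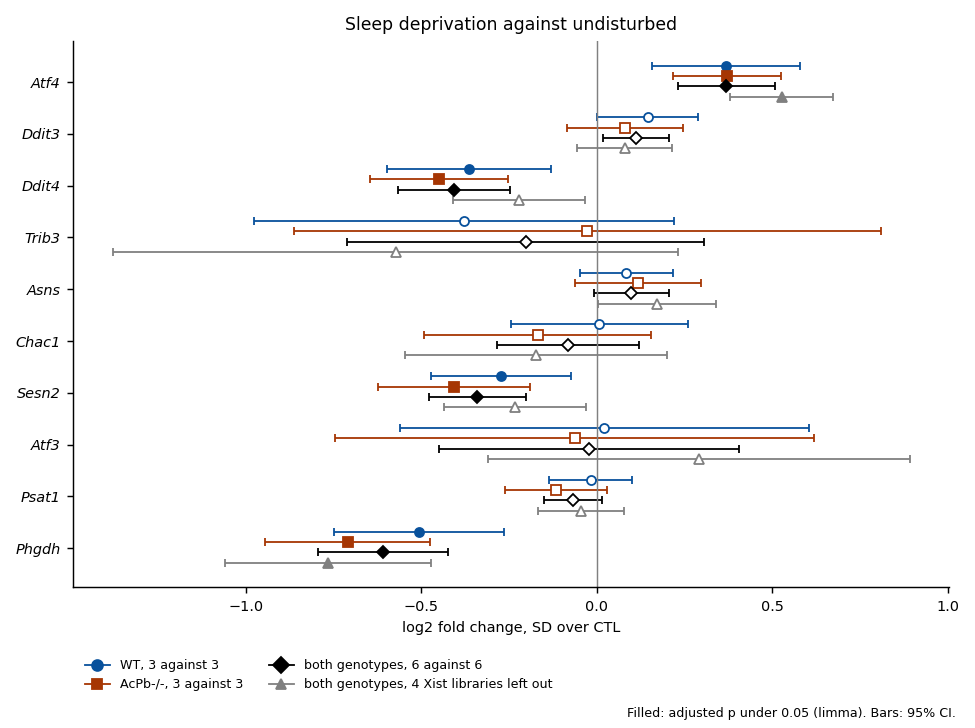
Log2 fold change of SD over CTL (x axis) for the 10 genes (y axis), with 95% confidence intervals, in wild-type mice, in AcPb-/- mice, over both genotypes and over both without the 4 Xist libraries. Filled symbols are past an adjusted p of 0.05 by limma. Atf4 lies to the right of 0 and Phgdh to the left in all 4 estimates, whereas Ddit4 and Sesn2 are filled in the first 3 only.

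The SD effects were then compared between genotypes. The difference of the log2 fold changes, AcPb-/- minus wild type, was -0.00045 for Atf4 (95% CI -0.28 to 0.28), -0.21 for Phgdh (-0.57 to 0.16), -0.087 for Ddit4 (-0.41 to 0.23), -0.14 for Sesn2 (-0.41 to 0.14) and -0.18 for Chac1 (-0.58 to 0.23). None of the 10 genes passed this interaction test by limma, DESeq2 or edgeR, and 0% of 20978 genes did by limma. At an unadjusted p under 0.05 limma had 0 of the 10 and 839 of all genes. The intervals leave room for differences in either direction.

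Genes around the response were counted in lists, and each count over both genotypes stands beside 21.2% of all genes that rose and 20.3% that fell. Without the 4 Xist libraries, 13.2% of all genes rose and 11.5% fell. Of the 4 eIF2 kinases, Eif2ak1, the heme-regulated kinase, rose over both genotypes (log2 fold change 0.28, adjusted p = 0.000956) and none fell. Without the Xist libraries Eif2ak1 did not pass (0.24, adjusted p = 0.120), and 0 of the 4 did. Of 12 genes of eIF2, eIF2B and its regulators 3 rose and 3 fell. The eIF2 subunits Eif2s1 (0.51, adjusted p = 9.73e-06) and Eif2s2 (0.51, adjusted p = 5.91e-06) rose, while Gcn1l1, the activator of the amino acid sensing kinase, fell (-0.36, adjusted p = 6.49e-05), as did Impact, its inhibitor (-0.26, adjusted p = 0.0205, limma). The subunit Eif2s3x also fell (-0.29, adjusted p = 0.0327, limma), but was not among the genes that fell without the Xist libraries. Impact was lost without SD-AcPbKO-03, SD-WT-01 or SD-WT-02 (adjusted p up to 0.0566) and without the Xist libraries (-0.34, adjusted p = 0.118), when 3 of the 12 rose and 1 fell. Of 9 partners and relatives of ATF4, 2 rose (Nupr1, 0.69, and Jdp2, 0.35) and 3 fell, Cebpb and Atf5 (-0.24, adjusted p = 0.00605, limma) among them. Nupr1 is also on the list of stress effectors and is counted in both. The mean of Cebpb fell from 165 to 76.6 normalized counts in wild-type and from 164 to 77.2 in AcPb-/- mice (log2 fold change -1.08, adjusted p = 4.89e-06, limma). Without the Xist libraries 3 of the 9 rose and 2 fell.

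The other ATF4 targets went in both directions after SD. Of 9 amino acid transporters 1 rose, Slc3a2 (0.17, adjusted p = 0.00155), and 4 fell, with Slc7a11, the cystine transporter, from a mean of 2787 to 1729 in wild-type and from 3573 to 2036 in AcPb-/- mice (-0.74, adjusted p = 1.18e-05), Slc7a3 (-0.54, adjusted p = 0.0201) and Slc1a4 (-0.17, adjusted p = 0.00764). Of 11 genes of amino acid and folate metabolism 5 rose, Gpt2 (0.54, adjusted p = 4.55e-05) and Cbs (0.26, adjusted p = 0.00432) among them, and 4 fell, Pycr1 (-0.50, adjusted p = 0.00132) and Pck2 (-0.39, adjusted p = 2.38e-05) among them. Of 10 stress effectors 3 rose, Vegfa (0.50, adjusted p = 5.52e-05), Trib1 (0.68, adjusted p = 0.00452) and Nupr1, already counted above. Among them 2 fell, Eif4ebp1 (-0.56, adjusted p = 0.000257) and Vldlr (-0.27, adjusted p = 0.00103, limma). Of 7 aminoacyl-tRNA synthetases 4 rose, with Nars (0.22, adjusted p = 0.000324) and Sars (0.21, adjusted p = 0.00102), and 2 fell, with Gars (-0.17, adjusted p = 0.0371, limma). Gars was lost on leaving out any of 7 single libraries (CTL-AcPbKO-04, CTL-AcPbKO-05, CTL-WT-03, SD-AcPbKO-02, SD-AcPbKO-04, SD-WT-01 or SD-WT-02, adjusted p from 0.0562 to 0.0968), and Slc7a3 without SD-AcPbKO-02 or SD-WT-02 (0.0540 to 0.0556). Without the Xist libraries Slc3a2 (0.14, adjusted p = 0.0670), Slc7a3 (-0.82, 0.0521), Slc1a4 (-0.13, 0.168), Vldlr (-0.18, 0.140) and Gars (-0.092, 0.528) did not pass. The counts were then 1 higher and 1 lower of 9 transporters, 3 and 2 of 11 metabolic genes, 3 and 1 of 10 stress effectors, and 2 and 0 of 7 synthetases. The median log2 fold changes of these 4 lists were -0.078, 0.044, 0.010 and 0.13, beside 0.0029 for all genes.

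In neighbouring pathways, 9 of 11 genes of the ATF6 and XBP1 branch of the unfolded protein response rose and 1 fell (median 0.27). The chaperones Hsp90b1 (log2 fold change 0.93, adjusted p = 2.89e-07) and Calr (1.04, adjusted p = 7.53e-07) rose, with Manf (0.63, adjusted p = 1.38e-06) and Pdia4 (0.66, adjusted p = 7.71e-06, limma). Without the Xist libraries 6 of the 11 rose and 0 fell, these 4 among them. Of 9 glucocorticoid-induced genes 7 rose and 0 fell (median 0.83), led by Plin4 (2.84), Cdkn1a (1.51), Fkbp5 (1.21) and Zbtb16 (0.91), and 7 rose and 0 fell without the Xist libraries. Of 5 p53 targets 2 rose (Cdkn1a and Mdm2, 0.18) and 2 fell (Phlda3, -0.54, and Bax, -0.49, the latter -0.42 with an adjusted p of 0.0599 without the Xist libraries), and of 3 sestrin and Ddit4 relatives 0 passed in either direction. Of 10 immediate early genes 3 rose and 2 fell. Without the 4 Xist libraries 7 rose and 0 fell, and the list's median went from 0.00021 to 0.79. Junb, which had fallen, turned from -0.59 to 0.098 and Ier2 went from -0.63 to -0.0585, while Fosb went from 0.51 to 0.85 and Arc from 0.91 to 1.96. With the Xist libraries kept, Arc ranged from 0.59 to 1.14 over the fits that left out 1 library, and its call was lost in 8 of the 12 (CTL-AcPbKO-03, CTL-AcPbKO-04 or any SD library left out, adjusted p up to 0.0786). Junb's was lost in 10 of the 12 (all but CTL-AcPbKO-03 and CTL-WT-01) and Ier2's in 5 (CTL-AcPbKO-05, CTL-WT-02, CTL-WT-03, SD-AcPbKO-02 and SD-WT-02). Of markers of other cells, 3 of 6 neuronal genes rose and 2 fell, 0 of 5 oligodendrocyte genes rose and 1 fell, 0 of 5 microglial genes rose and 3 fell, 2 of 4 endothelial genes rose and 1 fell, 0 of 3 choroid plexus and 0 of 5 striatal genes passed in either direction, and the 4 hemoglobin genes were listed at 0 in all libraries. Without the Xist libraries 2 neuronal genes rose and 1 fell, 1 astrocyte, 2 oligodendrocyte, 1 microglial, 1 endothelial and 1 striatal gene fell, and 0 other markers passed.

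The second question was whether the genes differed between genotypes. Atf4, Asns, Chac1, Sesn2 and Psat1 were lower in AcPb-/- than in wild-type mice, both undisturbed and after SD, with no overlap between the 3 libraries of each group. Chac1 stood at 0.522 times, Atf4 at 0.684 times and Asns at 0.772 times its wild-type level over both conditions. Ddit3, Ddit4, Phgdh, Trib3 and Atf3 overlapped between genotypes in both conditions. In each condition 5 of 10 genes were lower without overlap, where 7.04% of genes were in undisturbed mice and 6.01% were after SD. These are different libraries in each condition.

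Chac1 had 467, 475 and 473 normalized counts in CTL-WT libraries and 300.1, 242 and 246 in CTL-AcPbKO libraries. After SD it had 420, 448 and 567 in wild-type and 199, 246 and 255 in AcPb-/- libraries. The lowest of the 6 wild-type libraries lay above the highest AcPb-/- library. Atf4 had, as given above, 5749 to 7556 against 4158 to 4873 undisturbed and 7892 to 9044 against 5705 to 5963 after SD, so that 2 of the 3 AcPb-/- libraries after SD lay above the lowest undisturbed wild-type library. Asns had 5068, 5103 and 5511 in CTL-WT, 3715, 4285 and 3997 in CTL-AcPbKO, 5329, 5641 and 5656 in SD-WT and 4689, 3984 and 4319 in SD-AcPbKO libraries, again without overlap over all 12. Psat1 had 4205, 4357 and 4399 in CTL-WT and 3785, 3632 and 4013 in CTL-AcPbKO libraries. After SD it had 4245, 4219 and 4347 in wild-type and 3375, 3731 and 3429 in AcPb-/- libraries, and the genotypes were separate over all 12 libraries. Sesn2 was at 660 to 762 against 560 to 649 undisturbed and 549 to 629 against 414 to 470.5 after SD.

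With 3 libraries against 3, limma called 0 of the 10 genes in undisturbed mice, where it called 0.0197% of 20273 genes. At an unadjusted p under 0.05 it had 5 of the 10 and 1730 of all genes. After SD it also called 0, where it called 0.0145% of 20621 genes. The unadjusted threshold then held for 5 of the 10 and for 1265 of all genes. In undisturbed mice the log2 difference was -0.85 for Chac1 (adjusted p = 0.0725), -0.55 for Atf4 (0.192) and -0.39 for Asns (0.165). After SD it was -1.03 for Chac1 (adjusted p = 0.0645), -0.55 for Atf4 (0.0548) and -0.36 for Asns (0.224). DESeq2 on the recovered reads called 3 of 10 in undisturbed mice, Chac1 (adjusted p = 8.95e-06), Atf4 (7.02e-05) and Asns (0.000307), where it called 0.569% of genes. After SD it called 5, Atf4 (adjusted p = 4.77e-09), Chac1 (9.69e-08), Asns (0.00632), Psat1 (0.0258) and Sesn2 (0.0450), where it called 0.532%. edgeR called 1 of the 10 in undisturbed mice, where it called 0.0395% of genes, and 2 after SD, where it called 0.0436%. Without CTL-AcPbKO-03, limma called 0.836% of genes in undisturbed mice, 2 of the 10 among them, Chac1 (-0.95, adjusted p = 0.00292) and Asns (-0.34, adjusted p = 0.0391). CTL-AcPbKO-03 was the only CTL-AcPbKO library without the Xist pattern. Both libraries left in that group had it, against 2 of 3 CTL-WT libraries, so genotype and Xist status were unbalanced in this fit.

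The genotype difference was also averaged over both conditions in the fit of all 12 libraries, a comparison added after the values above were seen. limma then called 5 of the 10 genes, all lower in AcPb-/- mice, where it called 0.343% of 20978 genes (72, of which 47 were lower). The log2 difference was -0.94 for Chac1 (95% CI -1.14 to -0.74, adjusted p = 0.00104), -0.55 for Atf4 (-0.69 to -0.41, adjusted p = 0.00239), -0.37 for Asns (-0.48 to -0.27, adjusted p = 0.00576), -0.23 for Psat1 (-0.32 to -0.15, adjusted p = 0.0199) and -0.34 for Sesn2 (-0.47 to -0.20, adjusted p = 0.0471). By unadjusted p, Chac1 ranked 4 and Atf4 ranked 8 among all genes tested. The remaining 5 genes had differences of -0.0082 for Ddit3 (95% CI -0.10 to 0.085), -0.12 for Ddit4 (-0.28 to 0.036), -0.13 for Phgdh (-0.31 to 0.053), -0.36 for Atf3 (-0.79 to 0.063) and -0.44 for Trib3 (-0.95 to 0.066). The median of the 10 was -0.35, beside 0.0013 for all genes. DESeq2 called the same 5 genes, where it called 1.73% of genes, and 3 genes (Asns, Chac1 and Psat1) did not overlap with 6 libraries against 6, where 0.524% of genes did not.

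The calls of Chac1, Atf4 and Asns held with any 1 library left out (highest adjusted p 0.0071, 0.012 and 0.0273). Psat1 was lost without CTL-AcPbKO-04, CTL-WT-02, CTL-WT-03, SD-AcPbKO-02, SD-AcPbKO-04, SD-WT-01 or SD-WT-02 (adjusted p up to 0.0735), and Sesn2 without any of the 12 but CTL-WT-01 (up to 0.145). Each control group held 2 Xist libraries, and the genotypes differed the same way inside each kind. Chac1 was at 475 and 473 against 242 and 246 in libraries with Xist and at 467 against 300.1 in those without. Atf4 was at 6597 and 7556 against 4531 and 4873 with Xist and at 5749 against 4158 without. With a term for Xist limma called the same 5 genes. Since the genotypes held equally many Xist libraries, that term could not move the differences averaged over both conditions, only their spread. The median of the 10 was -0.35 with and without it. With the 4 libraries left out each genotype kept 1 control, and no gene was called, of the 10 or any other. The log2 differences were then -0.83 for Chac1 (95% CI -1.21 to -0.46), -0.51 for Atf4 (-0.65 to -0.36) and -0.40 for Asns (-0.57 to -0.24).

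**Figure D3:**
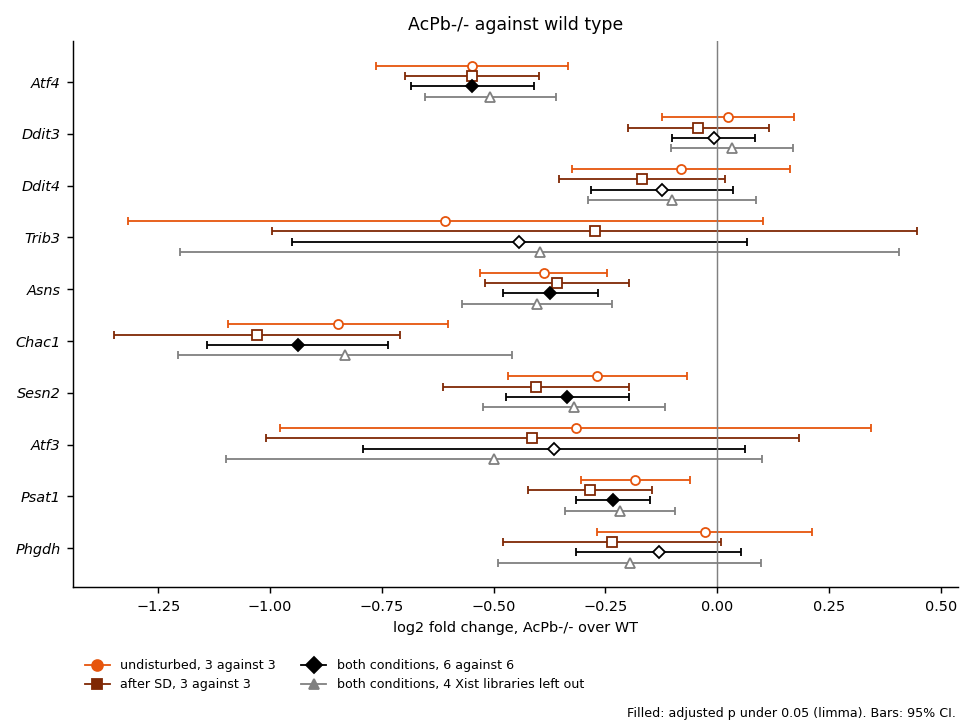
Log2 fold change of AcPb-/- over wild type (x axis) for the 10 genes (y axis), with 95% confidence intervals, undisturbed, after SD, over both conditions and over both without the 4 Xist libraries. Filled symbols are past an adjusted p of 0.05 by limma. The intervals of Atf4, Asns, Chac1, Sesn2 and Psat1 lie left of 0 in all 4 estimates, filled only over both conditions with all 12 libraries.

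Part of the other ATF4 targets was lower in AcPb-/- mice. Of 37 genes in the lists of amino acid transport, amino acid and folate metabolism, stress effectors and aminoacyl-tRNA synthetases, limma called 8 lower and 0 higher over both conditions, beside the 0.343% of all genes. The sign was negative for 31 of the 37, and their median log2 difference was -0.15. DESeq2 called 15 lower and 1 higher, where it called 1.73% of genes. The 1 higher was a transporter. By limma 2 of the 9 transporters were above 0, Slc7a11 (0.31, adjusted p = 0.151) and Slc1a5 (0.030, adjusted p = 0.943). In undisturbed mice 19 of the 37, and after SD 20, were lower without overlap (7.04% and 6.01% of all genes), and 8 were with 6 libraries against 6. By list, 3 of 9 transporters, 3 of 11 metabolic genes, 0 of 10 stress effectors (3 at an unadjusted p under 0.05, 1 by DESeq2 and 1 by edgeR) and 2 of 7 synthetases were lower and 0 were higher. At an unadjusted p under 0.05 limma had 2148 of all 20978 genes. All 7 synthetases had negative differences, with a median of -0.18.

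The genes called, named after their values were seen, included Mthfd2, the mitochondrial folate enzyme, with means of 405 ± 40.7 in CTL-WT and 221 ± 5.45 in CTL-AcPbKO mice, and 347 ± 74.0 in SD-WT and 191 ± 13.6 in SD-AcPbKO mice (SD, n = 3; log2 difference -0.85, adjusted p = 0.00239). Cars, cysteinyl-tRNA synthetase, had means of 2535 and 1888 undisturbed and of 2748 and 2089 after SD in wild-type and AcPb-/- mice (-0.41, adjusted p = 0.00239). Nars, the asparaginyl-tRNA synthetase, differed by -0.26 (adjusted p = 0.00974) and Aldh18a1, an enzyme of proline synthesis, by -0.29 (adjusted p = 0.0132). The transporters Slc7a5 (-0.36, adjusted p = 0.0137), Slc7a1 (-0.27, adjusted p = 0.0214) and Slc7a3 (-0.88, adjusted p = 0.0471) and the folate enzyme Aldh1l2 (-0.46, adjusted p = 0.0266, limma) completed the 8. The calls of Slc7a3 and Aldh1l2 were lost on leaving out any 1 library but CTL-AcPbKO-03 (adjusted p up to 0.125 and 0.0883). Slc7a1 was lost without CTL-AcPbKO-04, CTL-WT-02, CTL-WT-03, SD-AcPbKO-03, SD-AcPbKO-04, SD-WT-02 or SD-WT-04 (up to 0.0735), and Aldh18a1 without CTL-WT-03 (0.0508). Of the 9 partners and relatives of ATF4, 1 was lower, Atf5 (-0.47, adjusted p = 0.00411, limma), a transcription factor of the mitochondrial stress response that ATF4 induces. Without the 4 Xist libraries no gene was past the threshold, the 37 included, and the median of the 37 was -0.18. Of the 37, limma called 5 without CTL-AcPbKO-04, CTL-WT-02, SD-AcPbKO-03, SD-AcPbKO-04, SD-WT-02 or SD-WT-04, and 4 without CTL-WT-03. In these fits it called from 25 (without CTL-WT-03) to 50 (without SD-WT-04) of all genes, beside 72 with all libraries.

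The 7 lists outside the ATF4 targets and the partners and relatives of ATF4 held 53 genes. These lists were the eIF2 kinases, eIF2 and eIF2B, the ATF6 and XBP1 branch, the sestrin and Ddit4 relatives, glucocorticoid-induced genes, p53 targets and immediate early genes. Over both conditions limma called 0 of the 53 between genotypes (4 at an unadjusted p under 0.05), and DESeq2 and edgeR called 0. Their median log2 difference was -0.042. Of all 20978 genes limma called 0.343%, and 2148 had an unadjusted p under 0.05. At that share, 0 calls among 53 genes do not set these lists apart from all genes. The ATF6 and XBP1 list, where 9 of 11 genes rose with SD, had a median genotype difference of -0.016. Of the 36 marker genes tested, from 7 cell types, 0 passed over both conditions by limma, by DESeq2 or by edgeR. At an unadjusted p under 0.05 limma had 8 of the 36, beside 2148 of all 20978 genes. Oligodendrocyte markers had the lowest median among the 7 cell types, -0.45. Their summed normalized counts were 81270 to 124700 in wild-type and 48840 to 114900 in AcPb-/- libraries. The part of these markers in the genotype difference was not tested.

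Genes known to vary between C57BL/6 substrains also differed, chosen after their values were seen. Gabra2 and Nnt had normalized counts of 1819 to 1951 and 946 to 1082 in CTL-WT, and of 3152 to 4525 and 1542 to 1858 in CTL-AcPbKO libraries. After SD, Gabra2 had 1899 to 2623 in wild-type and 3013 to 3919 in AcPb-/- libraries, while Nnt overlapped (949 to 1031 and 928 to 1468). Over both conditions the log2 differences were 0.82 for Gabra2 (adjusted p = 0.00239) and 0.52 for Nnt (adjusted p = 0.0353, limma). Of 246 genes tested within 10 Mb of Il1rap on chromosome 16, 8 (3.25%) were past the threshold, and 0 of the 10 genes and 0 of the 9 list genes called lie on that chromosome. Loss of AcPb, genetic background and separate breeding cannot be told apart.

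Across the 12 libraries, pairs of the 10 genes with the highest Pearson r of log2 normalized counts were Chac1 and Psat1 (r = 0.907, and 0.316 after group means were removed), Atf4 and Asns (0.890 and 0.435) and Ddit4 and Sesn2 (0.866 and 0.832). The points share libraries, and group differences enter these values. Among 12553 genes, the 3 with the pattern most like each gene (for Psat1, 2 of them are given) were Nars (r = 0.966), Cab39 and Ndufaf7 for Atf4, Aldh18a1 (0.969), Cars and Tspyl4 for Asns, Nudt3 (0.954), Mthfd2 and Snrpc for Chac1, and Shmt2 (0.958), Mob2 and Fbxo9 for Sesn2. They were Nudt3 (0.963) and Rpl28 for Psat1, Fance (0.984), Mocs1 and Mt3 for Phgdh, Slitrk2 (0.957), Hmgxb3 and Vgll4 for Ddit4, and Gss (0.923), Ncoa3 and Dalrd3 for Ddit3. Nars, Aldh18a1, Cars, Mthfd2 and Shmt2 are on the ATF4 target lists, and the other similar genes named here are not.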

How the data were processed

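Poly(A) RNA of somatosensory cortex was sequenced by the authors after TruSeq Stranded mRNA preparation. The submitters' processing notes name bcl2fastq, HISAT2 2.2.1, featureCounts, DESeq2 1.31.16 and mm10, whereas the paper's methods name HTSeq for counting. The deposited tables compare 2 groups at a time. Their per-library values are signal, read counts divided by the authors' DESeq2 size factors, and their mean column is the authors' mean of these normalized counts. Columns of the authors' comparisons (the log2 fold change, its standard error, the Wald statistic as a score, and p-values raw and adjusted) are deposited too and were not used. Dividing out the size factors gave whole reads for 100.0% of 732630 values (within 0.01 read), and 0 counts differed between tables. Of 16 labelled samples, 4 were not analysed here. Replicates differed by more than sampling noise (lowest chi-square per degree of freedom 6.35), so all were counted.

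limma (version 3.58.1, R 4.3.3) with a variance trend was fitted to log2(normalized count + 1) over all genes with a read, within each table for 2 groups and, for comparisons over both genotypes or conditions and for the interaction, over 12 libraries scaled together by median-of-ratios size factors. Fold changes are on this scale and understate changes of low genes. The threshold was 0.05 after Benjamini-Hochberg adjustment over all genes of a fit. On simulated counts for wild-type mice (20352 genes) limma recovered 96 of 100 genes changed by 1 on the log2 scale and 47 of 100 changed by 0.5, and for the interaction (20677 genes) 74 and 11 of 100. The simulation gave every gene the same spread beyond sampling noise and changed 200 genes, all with higher counts than Trib3 and Atf3. In the measured wild-type SD comparison 25.4% of genes passed, so these rates need not hold for the data. Alternatives were edgeR 4.0.16 and DESeq2 1.42.0 on recovered reads, other pseudocounts, a filter on low genes, centring, a stricter threshold, 1 fit of all groups, a replicate block, a term for Xist, and leaving out the Xist libraries or any 1 library.

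The 10 genes, 12 pathway lists and 8 marker lists were chosen with earlier results of these data known. The named genes are the 10, up to 4 genes per pathway list (past the threshold with SD, mean of at least 50, lowest adjusted p), and, for each of the 10 with a mean of at least 100, the 3 genes with the highest correlation, 1 of which is not reported here. Others were chosen after their values were seen. Positions and exon lengths are from GENCODE M21 (GRCm38), where 23384 of 24421 symbols matched, and promoters from RefSeq (GRCm38.p6), where all 10 genes matched.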

Additional observations from a re-analysis of the deposited data

How the results depend on the processing

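Of the values for the 10 genes under the alternatives, 1121 kept their direction and their side of the threshold, 59 kept the direction and lost the threshold, 24 gained it and 56 changed sign, the last all for genes not past the threshold. Of the 10 genes 4 passed with SD in wild-type mice, but 1 at an adjusted p under 0.01, 1 without the Xist libraries and 2 with a term for Xist. In AcPb-/- mice 4 passed, and 2 without the Xist libraries. Over both genotypes 4 passed, and 2 without the Xist libraries. Between genotypes undisturbed 0 were called, but 3 with DESeq2, 1 with edgeR and 1 with a term for Xist (0.0334% of all genes). Between genotypes after SD 0 were called, but 1 in 1 fit of all 4 groups (0.0238% of all genes), 5 with DESeq2, 2 with edgeR and 2 with a term for Xist (0.062%). Of the 5 called between genotypes over both conditions, 3 remained at an adjusted p under 0.01 and 0 without the Xist libraries. Of the 37 other ATF4 targets 8 were called there, but 16 by DESeq2 in either direction and 0 without the Xist libraries. Leaving out 1 library gave counts from 1 to 4 with SD in wild-type mice, 0 to 2 between genotypes undisturbed, 3 to 5 for the 10 genes and 4 to 8 for the other targets between genotypes over both conditions (the 4 without CTL-WT-03). In these fits the share of all genes called also moved, from 13.3% to 30.7% with SD in wild-type mice. Between genotypes it ranged from 0% to 0.836% undisturbed and from 0.119% to 0.578% over both conditions. Where a setting removed libraries, fewer samples stand behind the fit, and otherwise the cause was not tested.

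Same-numbered libraries of different groups had correlations of their deviations from -0.43 to 0.23 over 10 pairs, so the numbers do not pair the samples. With a replicate block 0 of the 10 genes passed with SD in wild-type mice, 0 in AcPb-/- mice, 1 between genotypes over both conditions and 0 of the other ATF4 targets there, where the block called 0, 0 and 4 of all genes. Over both genotypes the block changed no call of Atf4, Phgdh, Ddit4 or Sesn2 and brought Ddit3 past the threshold (adjusted p = 0.0499), as did 5 other alternatives.

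Signs turned as follows, in log2 fold change. With the block, Chac1 was -0.12 and Atf3 -0.035 in wild-type mice, Atf3 0.25 in AcPb-/- mice and 0.10 over both genotypes, Ddit3 0.0029 between genotypes, and the interactions of Atf4 and Atf3 were 0.084 and 0.36. With a term for Xist, Chac1 was -0.084 and Psat1 0.0070 in wild-type mice, Atf3 0.25 in AcPb-/- mice and 0.29 over both, and Junb 0.098. Without the Xist libraries, Psat1 was 0.022 in wild-type mice, Atf3 0.38 in AcPb-/- mice and 0.29 over both, Junb 0.098, Ddit3 0.034 between genotypes, and the interaction of Atf3 0.18. DESeq2 and edgeR gave Trib3 0.030 and 0.030 in AcPb-/- mice and the interaction of Atf4 as 0.0039 and 0.0067, and centring gave 0.0017 for the latter. Leaving out 1 library gave, with SD in wild-type mice, Chac1 from -0.12 to 0.10 and Atf3 from -0.18 to 0.17, in AcPb-/- mice Trib3 from -0.36 to 0.24 and Atf3 from -0.28 to 0.12, and over both Atf3 from -0.13 to 0.071. Between genotypes undisturbed it gave Ddit3 from -0.014 to 0.056, Ddit4 from -0.19 to 0.012 and Phgdh from -0.15 to 0.084, and over both conditions Ddit3 from -0.029 to 0.010. The interactions ranged from -0.10 to 0.10 for Atf4, -0.18 to 0.018 for Ddit4, -0.030 to 0.088 for Asns and -0.31 to 0.11 for Atf3. Depth limits Trib3 and Atf3, with at most 50 reads per library.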
